A study of Mus musculus with 16 samples.

Results

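The actin isoforms Acta1, Actc1, Acta2, Actb and Actg1 and the alpha-actinins Actn1, Actn4, Actn2 and Actn3 were followed through the differentiation of C2C12, a mouse myoblast line that fuses into myotubes in culture. The 9 genes were chosen by symbol from a table of 31053 genes, and 9 of 9 passed the filter on low values (10 or more normalized counts in no fewer than 4 samples), which left 10767 genes for testing. mRNA was sequenced from 16 samples, 4 in each group: myoblasts and myotubes of wild-type cells (WT) and of Fam134b knockout cells (KO), all kept in DMEM with fetal bovine serum and no other agent named in the labels. Myotubes formed once the cells reached confluency, in the same kind of medium. The KO cells were made with a lentiviral CRISPR-Cas9 vector carrying a pair of guides against Fam134b, an ER-phagy receptor, and were selected with antibiotics. No single clone is named, and the KO samples stand for that 1 line, so that genotype and cell line cannot be told apart.

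Actin is the monomer of the thin filament. Vertebrates make striated muscle actins (Acta1 in skeletal muscle, Actc1 in heart and in immature skeletal muscle), smooth muscle actins (Acta2 among them) and cytoplasmic actins (Actb and Actg1). Myoblasts use the cytoplasmic isoforms for the cortex and for stress fibres, and replace part of them with striated isoforms as sarcomeres are built. Alpha-actinins are rod-shaped dimers that crosslink actin filaments. Actn1 and Actn4 do so in stress fibres and at adhesions, whereas Actn2 and Actn3 anchor thin filaments in the Z-disc of striated muscle, Actn3 in fast fibres.

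The files carry no label of the day of sampling, and the depth was 1484750 to 3287461 reads per sample. Replicates 2 and 4 of the KO myotubes were the shallowest, with 1790524 and 1484750 reads, and KO myotubes varied most between replicates (root mean square deviation from the group mean of 0.448 to 0.691 on the log2 scale, against 0.260 to 0.440 in the other groups). Fam134b had 207 ± 41.97 normalized counts in WT and 27.5 ± 5.49 in KO myoblasts, and 232 ± 61.6 in WT and 41.8 ± 14.02 in KO myotubes (SD, n = 4), without overlap at either stage. The summed level of 6 skeletal muscle markers (Myod1, Myog and others) was 1471 to 2092 in myoblasts and 16389 to 24660 in myotubes of WT, 12.5 to 21.9 in KO myoblasts, where Myog was at 0, and 6654 to 8081 in KO myotubes. Markers of fibroblasts summed to 2687 to 5526, 12390 to 22081, 3735 to 14012 and 17123 to 35988 in the same order. Of these 7 markers, 3 had a mean of 10 or more normalized counts in each myoblast group and 4 in each myotube group. Thy1 was at 0 in both WT groups and Lum at 0 in KO myoblasts. The smooth muscle marker Myh11 was at 0 in both myoblast groups and Myocd at 0 in KO myoblasts and both myotube groups, while 3 of the 5 smooth muscle markers had a mean of 10 or more normalized counts in each group, and their sum was 360 to 822 over all samples. In such bulk samples, fewer cells of a type and less RNA per cell cannot be told apart.

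The serum response factor SRF binds the CArG box, an AT-rich motif found upstream of many muscle and actin genes. RefSeq promoters of 7 of the 9 genes were at hand (build GRCm38.p6), and the 250 bases before the RefSeq start were searched on both strands. The upstream sequence of Acta1, the gene with the most negative fitted change in KO myoblasts among the 9, is shown whole. In percent of the WT mean, KO myoblasts held 2.70% for Acta1 and 2.53% for Actc1. The Acta1 sequence holds 1 CArG box and 2 near matches. It lies at chr8:123894776-123895025, minus strand, and its capitals mark the CArG box, which ends 64 bases before the start, and the near matches, CArG boxes with 1 other base in the core.
Acta1: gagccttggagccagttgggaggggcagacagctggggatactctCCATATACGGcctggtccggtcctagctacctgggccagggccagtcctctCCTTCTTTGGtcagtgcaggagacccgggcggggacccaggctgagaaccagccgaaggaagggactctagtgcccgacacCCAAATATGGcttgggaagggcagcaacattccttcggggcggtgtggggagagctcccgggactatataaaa

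For Actc1, Actg1 and Acta2, a stretch of 30 bases around the match nearest to the full motif is shown, so that the boxes of a gene that rose in myotubes, one that was lower in KO myotubes than in KO myoblasts and one that was not called can be compared. They lie at chr2:114052903-114052932, chr11:120348566-120348595 and chr19:34255438-34255467, each on the minus strand. Capitals mark the CArG box in Actc1 and Actg1, and 1 near match in Acta2. Acta2 held another near match at -34 to -25 from the start. Besides its CArG box, Actc1 held near matches at -175 to -166, -138 to -129 and -87 to -78. These other matches are not shown.
Actc1: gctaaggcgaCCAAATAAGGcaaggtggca
Actg1: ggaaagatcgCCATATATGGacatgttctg
Acta2: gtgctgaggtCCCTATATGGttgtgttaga

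The CArG box was present in 3 of the 7 promoters (Acta1, Actc1 and Actg1) and in 1.47% of 32851 mouse promoters. The near match was present in 3 of 7 (Acta1, Actc1 and Acta2) and in 7.24% of promoters. The E-box letters CANNTG were present in 6 of 7 and in 66.2% of promoters. Actc1 alone of the 7 lacked CANNTG in this window. Actn1, Actn4 and Actn2 held neither the CArG box nor its near match there. Actb and Actn3 had no entry.

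Levels of different genes were compared per kilobase of transcript, which holds only if reads cover whole transcripts, and this is not given in the sources used here. On that scale Actb was the highest of the 9 in each group, at 27830 normalized counts per kilobase in WT myoblasts, 11407 in WT myotubes, 19241 in KO myoblasts and 8752 in KO myotubes. Acta2 ranked second in both myoblast groups (3528 in WT and 4441 in KO) and in KO myotubes (4524). In WT myotubes Acta1 (4122) stood above Acta2 (3171) on this scale. Not divided by length, the order there was the reverse, with mean normalized counts of 6454 for Acta2 and 5961 for Acta1. Of the alpha-actinins, Actn1 (354 to 481 per kilobase) was above Actn4 (271 to 314), Actn3 (18.7 to 156) and Actn2 (0 to 33.3) in each group mean.

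**Figure D1:**
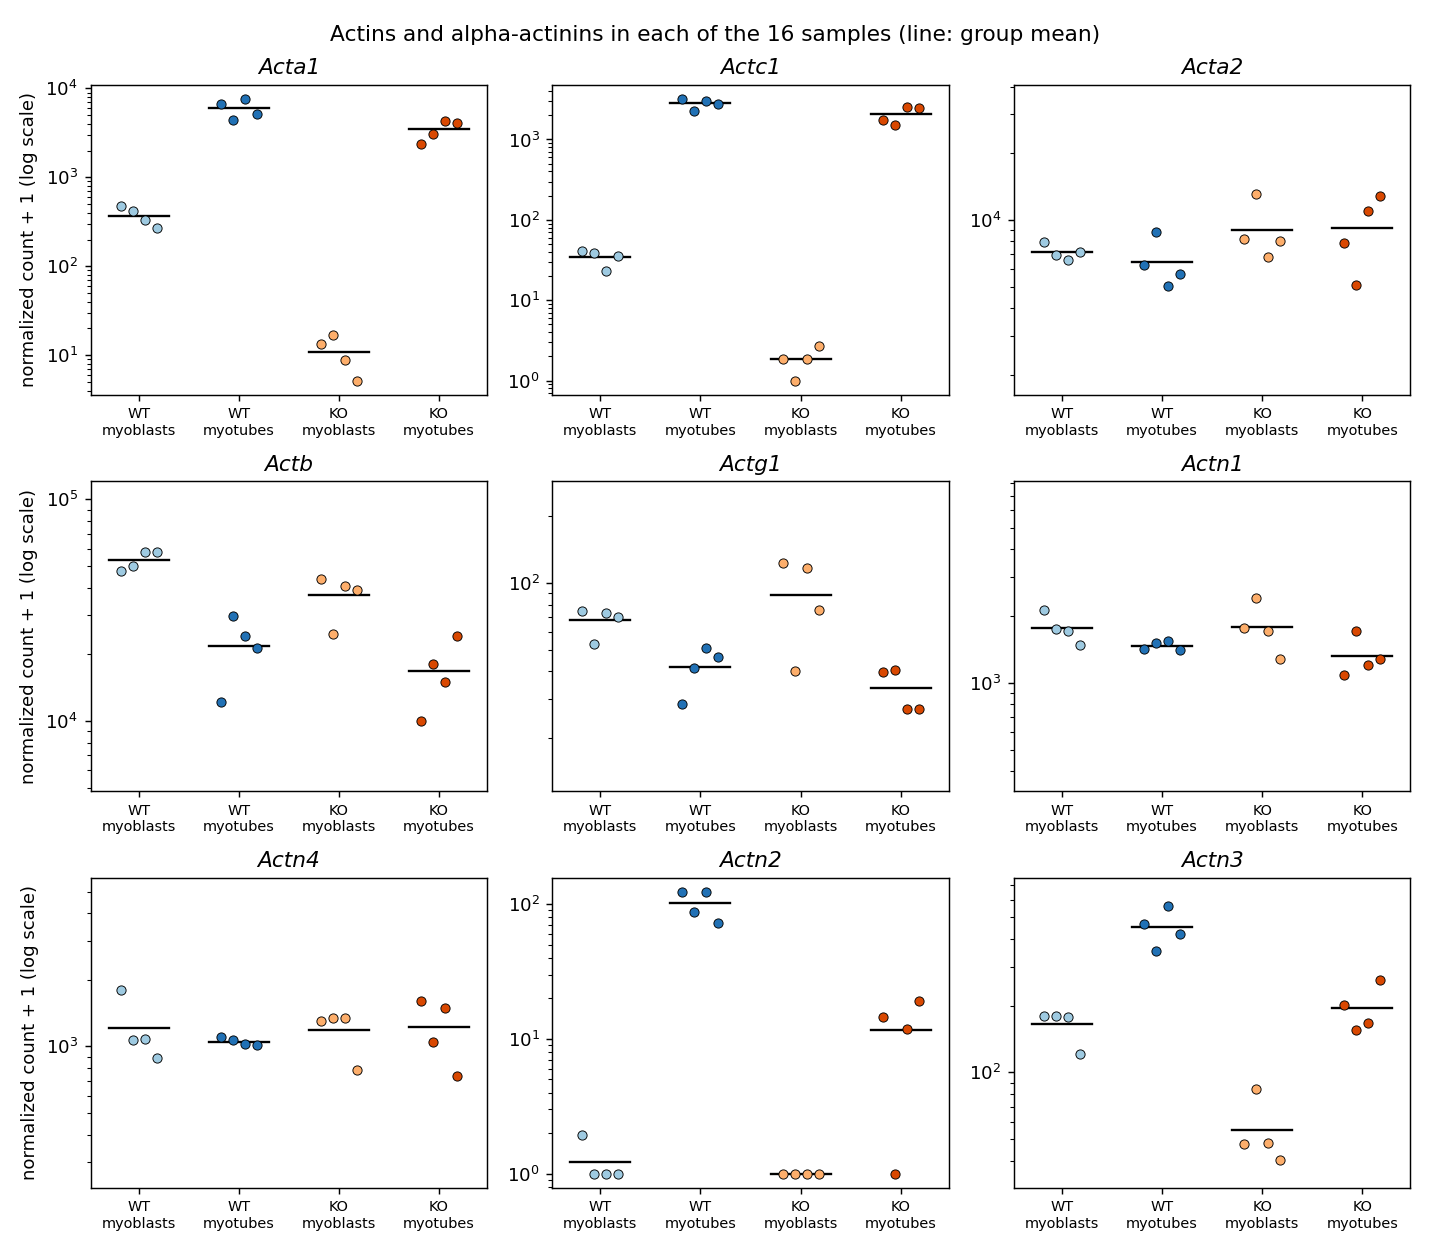
Normalized count plus 1 on a log axis in each of the 16 samples, with 1 panel per gene, 4 points per group in replicate order and a line at the group mean. Acta1 and Actc1 are lowest in KO myoblasts (means of 10.0 and 0.853) and highest in WT myotubes, whereas Acta2, Actn1 and Actn4 overlap between groups.

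Acta1, the skeletal muscle actin (ENSMUSG00000031972), rose strongly in both genotypes. Its normalized counts were 473, 413, 328 and 266 in the 4 WT myoblast samples and 6735, 4404, 7603 and 5100 in WT myotubes. In KO myoblasts they were 12.2, 15.8, 7.81 and 4.17, and in KO myotubes 2374, 3107, 4323 and 4036. The 4 groups did not overlap with each other. The log2 fold change was 4.01 in WT (standard error 0.29, adjusted p = 1.99e-09), a 16.1-fold increase, and 8.39 in KO (standard error 0.29, adjusted p = 1.58e-15). These and the later p-values are those of limma, adjusted by Benjamini-Hochberg over 10767 genes unless another number is given.

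Acta1 started from a lower level in the KO line. KO myoblasts held 2.70% of the WT mean, with a fitted log2 difference of -5.17 (adjusted p = 1.28e-11, standard error 0.29, limma). In myotubes the KO mean was 58.0% of WT, and the log2 fold change of -0.79 was not called (95% confidence interval -1.39 to -0.19, adjusted p = 0.0521, limma), although each KO myotube sample lay below each WT myotube sample. That call depended on the setting: the adjusted p was 0.0227 with a pseudocount of 5, 0.0327 after quantile normalization and 0.0240 to 0.0489 without any 1 of 5 samples (replicate 2 of WT myotubes, replicates 2 and 4 of KO myoblasts, replicates 3 and 4 of KO myotubes). The skeletal muscle markers above moved in the same directions, and their part in the difference was not tested.

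Actc1, the cardiac actin that skeletal muscle makes early (ENSMUSG00000068614), had normalized counts of 40.6, 37.6, 22.0 and 34.8 in WT myoblasts and of 3185, 2253, 3031 and 2762 in WT myotubes. In KO myoblasts it was 0.875, 0, 0.868 and 1.67, from 4 reads in all, and in KO myotubes 1753, 1506, 2539 and 2476. WT and KO myotubes overlapped, whereas no myoblast sample reached a myotube sample and no KO myoblast sample a WT one. From reads, the rise in KO was 2435-fold (95% counting interval 951 to 8941), and WT myoblasts were 39.9-fold above KO myoblasts (15.2 to 148). Such intervals cover counting error only.

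The log2 fold change of Actc1 on differentiation was 6.36 in WT (standard error 0.26, adjusted p = 4.80e-13) and 10.17 in KO (standard error 0.26, adjusted p = 8.42e-18, both limma). It was -4.28 in KO against WT myoblasts (standard error 0.26, adjusted p = 5.40e-11). In myotubes the KO mean was 73.7% of WT and the difference of -0.46 was not called (95% confidence interval -1.003 to 0.08, adjusted p = 0.208, limma). With few reads in KO myoblasts, the fitted fold changes of Actc1 that involve this group depend on the pseudocount of 1.

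Acta1 and Actc1 differed in proportion before differentiation. In WT myoblasts Acta1 was 11.5 ± 3.04 times Actc1 per kilobase (SD, n = 4), in WT myotubes 2.15 ± 0.295 times and in KO myotubes 1.72 ± 0.297 times. The lowest WT myoblast ratio, 7.78, was above the highest of any myotube sample, 2.56. KO myoblasts held too few reads for a ratio. Across the 16 samples the log2 values of both genes had a Pearson r of 0.971, while their deviations from the group means had r = -0.165, over points that share 4 groups and 16 libraries.

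Acta2, the smooth muscle actin (ENSMUSG00000035783), was abundant and was called in no comparison. Its normalized counts were 7973, 6933, 6623 and 7192 in WT myoblasts, 6230, 8839, 5028 and 5719 in WT myotubes, 8176, 13149, 6777 and 8047 in KO myoblasts and 7892, 5068, 10988 and 12878 in KO myotubes. The groups overlapped in each comparison. The log2 fold change was -0.18 in WT (95% confidence interval -0.74 to 0.38), -0.01 in KO (-0.57 to 0.55), 0.29 between myoblasts (-0.27 to 0.85) and 0.46 between myotubes (-0.10 to 1.02, adjusted p = 0.231, limma). The last was called without replicate 2 of the KO myotubes, at 0.72 (adjusted p = 0.0439), and with sample weights, at 0.67 (adjusted p = 0.0373).

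Actb, the ubiquitous cytoplasmic actin (ENSMUSG00000029580), decreased on differentiation. Its normalized counts were 47460, 50045, 58042 and 58185 in WT myoblasts and 12201, 29862, 24114 and 21432 in WT myotubes. In KO myoblasts they were 43547, 24758, 40548 and 38917, and in KO myotubes 9988, 18066, 15028 and 24134. Myotubes lay below myoblasts in both genotypes without overlap. The log2 fold change was -1.35 in WT (standard error 0.31, adjusted p = 3.85e-03) and -1.17 in KO (standard error 0.31, adjusted p = 6.61e-03, both limma), so that myotubes held 41.0% and 45.5% of the myoblast mean.

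Between genotypes Actb was not called in myoblasts (log2 fold change -0.56, 95% confidence interval -1.21 to 0.09, adjusted p = 0.265) or in myotubes (-0.38, -1.04 to 0.27, adjusted p = 0.416, both limma), although KO and WT myoblasts did not overlap. By count, Actb ranked 1 among all genes in each WT myoblast sample and 1 to 3 in KO myoblasts. It ranked 2 to 7 in WT myotubes and 5 to 16 in KO myotubes. Of the stretches of 31 bases in its transcript, 35.1% occur in other genes, and 26.2% of those in its last 500 bases, mostly in Lrrc58. The part of shared sequence in its counts was not tested.

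Actg1, the second cytoplasmic actin (ENSMUSG00000062825), had counts far below those of Actb, with 73.8, 52.1, 72.1 and 69.5 in WT myoblasts, 27.6, 40.5, 50.2 and 45.6 in WT myotubes, 122, 39.0, 116 and 74.2 in KO myoblasts and 38.7, 39.4, 26.1 and 25.98 in KO myotubes. WT myotubes lay below WT myoblasts without overlap. In KO the groups overlapped, at replicate 2 of the myoblasts. Even so, the fall was called in KO, at -1.30 (standard error 0.30, adjusted p = 2.42e-03), and not in WT, at -0.71 (standard error 0.30, adjusted p = 0.0956, both limma). In WT it was called with quantile normalization, sample weights or the 8 samples compared, and without replicate 2 of the KO myoblasts (adjusted p = 0.0239 to 0.0410). A difference between the 2 changes was not called in the test of the interaction (-0.59, adjusted p = 0.512). Of its transcript, 57.1% of the 31-base stretches are shared with 34 other genes, and 0% of those in the last 500 bases. Actg1 also overlaps Gm23419 and Mir6935 on the same strand. How reads on shared or overlapping sequence were counted is not given in the sources used here, so the level of Actg1 is uncertain. The part of either in its counts was not tested.

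**Figure D2:**
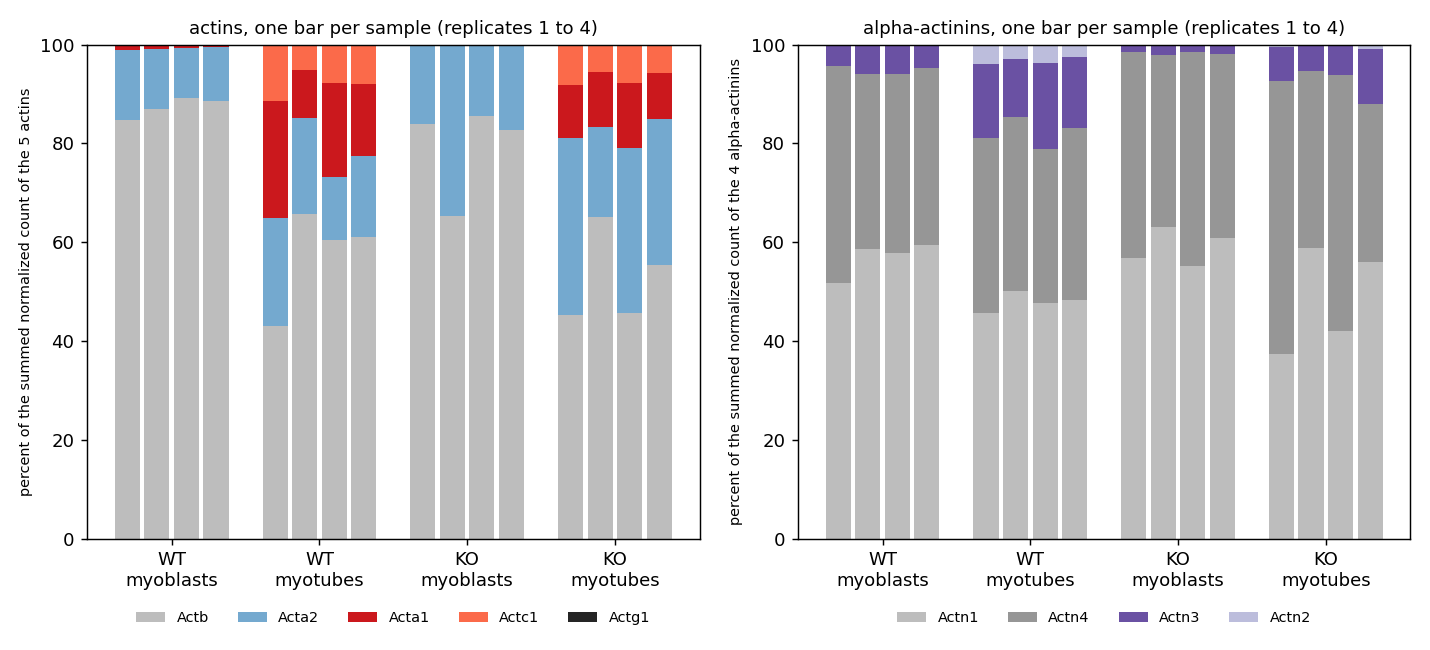
Share of each isoform, in percent, of the summed normalized counts of the 5 actins and of the 4 alpha-actinins, with 1 bar per sample in replicate order. Acta1 and Actc1 together take 14.7 to 35.0% of the actin total in WT myotubes and 14.95 to 20.9% in KO myotubes, and Actn2 and Actn3 together take 14.6 to 21.0% of the alpha-actinins in WT myotubes and 5.31 to 12.1% in KO myotubes.

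As a share of the 5 actins, Acta1 and Actc1 together made up 0.674% ± 0.214 in WT myoblasts, 24.7% ± 8.47 in WT myotubes, 0.0244% ± 0.0126 in KO myoblasts and 17.8% ± 2.56 in KO myotubes (SD, n = 4). Actb was 87.4% ± 1.97 and 57.6% ± 10.0 in WT myoblasts and myotubes, and 79.3% ± 9.48 and 52.9% ± 9.36 in KO. Acta2 was 11.9% ± 1.77 and 17.6% ± 4.04 in WT, and 20.4% ± 9.53 and 29.3% ± 7.78 in KO. The highest Acta2 share in KO myoblasts, 34.6%, was in replicate 2, which had the lowest Actb of its group. The 5 actins together held 2.24% ± 0.134 of all normalized counts in WT myoblasts, 1.36% ± 0.201 in WT myotubes, 1.76% ± 0.265 in KO myoblasts and 1.15% ± 0.272 in KO myotubes. By group means, both myotube groups thus had more striated actin within a smaller actin total. The KO totals overlapped, at 1.39 to 2.01% in myoblasts and 0.826 to 1.47% in myotubes. Each total includes Actg1, whose level is uncertain. These shares are descriptions and were not tested.

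The nonmuscle alpha-actinins overlapped between the groups. Actn1 (ENSMUSG00000015143) ranged from 1477 to 2123 and from 1409 to 1551 in WT myoblasts and myotubes, 1276 to 2426 in KO myoblasts and 1083 to 1715 in KO myotubes. Actn4 (ENSMUSG00000054808) ranged from 886 to 1805, 1018 to 1097, 779 to 1347 and 733 to 1608 in the same order. Neither gene was called in any comparison. The largest difference was that of Actn1 between KO myotubes and KO myoblasts, a log2 fold change of -0.42 (95% confidence interval -0.81 to -0.04, adjusted p = 0.0855, limma), which was called without both shallow KO myotube libraries (-0.61, adjusted p = 0.0351). It was also called with total scaling, and without replicate 4 of the KO myoblasts or replicate 2 of the KO myotubes (adjusted p = 0.0291 to 0.0499). For Actn4 the interval of the difference between myotubes was -0.36 to 0.65, around a log2 fold change of 0.15.

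The ratio of Actn1 to Actn4 per kilobase was 1.58 ± 0.241 in WT myoblasts, 1.46 ± 0.0984 in WT myotubes, 1.58 ± 0.260 in KO myoblasts and 1.27 ± 0.579 in KO myotubes (SD, n = 4). KO myotubes ranged from 0.699 to 1.82. Actn4 overlaps Capn12 on the opposite strand and Actn1 overlaps Gm47766 and Gm47767 there, and whether counting used strand is not given in the sources used here.

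Actn2, the alpha-actinin of all striated fibres (ENSMUSG00000052374), appeared with differentiation. Its normalized counts were 0.923, 0, 0 and 0 in WT myoblasts, from 1 read in all, and 122, 86.4, 122 and 71.3 in WT myotubes. KO myoblasts held 0 reads, and KO myotubes 13.6, 0, 10.8 and 17.98, from 35 reads in all. Each KO myotube sample lay below each WT myotube sample, and replicate 2 of the KO myotubes, with 1790524 reads, overlapped with the myoblasts. A count of 0 in that library allows up to 3 reads, a normalized count of 4.38.

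From reads, Actn2 was 429-fold higher in WT myotubes than in WT myoblasts (95% counting interval 76.5 to 16965). With KO myoblasts set at a floor of 3 reads over the group, KO myotubes were 16.5-fold higher. That value takes the 35 KO myotube reads without their counting error, so it is not a lower 95% limit. The KO myotube mean was 10.6% of WT. The fitted difference, taken between means of log2 values and thus lowered further by the 0 in replicate 2, was -3.71 (adjusted p = 4.02e-04, standard error 0.67, limma), and -2.91 (adjusted p = 1.65e-04) without both shallow libraries. On differentiation, adjusted p was 5.31e-07 in WT and 2.13e-03 in KO. No fold is given between the myoblast groups, which were at or under the floor.

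Actn3, the fast-fibre alpha-actinin (ENSMUSG00000006457), was detected in each group. Its normalized counts were 179, 178, 177 and 119 in WT myoblasts, 466, 353, 564 and 419 in WT myotubes, 46.4, 83.0, 46.8 and 39.2 in KO myoblasts and 199, 155, 166 and 260 in KO myotubes. KO lay below WT without overlap at both stages, and KO myotubes overlapped with WT myoblasts. The log2 fold change on differentiation was 1.46 in WT (standard error 0.23, adjusted p = 9.91e-05), a 2.74-fold rise, and 1.87 in KO (standard error 0.23, adjusted p = 2.19e-06), a 3.65-fold rise. KO against WT it was -1.62 in myoblasts (standard error 0.23, adjusted p = 1.90e-05) and -1.21 in myotubes (standard error 0.23, adjusted p = 6.06e-04, limma). KO cells therefore held 32.9% and 43.3% of the WT mean. The skeletal muscle marker sum lay lower in KO at both stages too, and its part in these differences was not tested.

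Actn2 and Actn3 together took 5.28% ± 0.806 of the alpha-actinin total in WT myoblasts, 17.8% ± 2.79 in WT myotubes, 1.76% ± 0.320 in KO myoblasts and 7.73% ± 3.03 in KO myotubes (SD, n = 4). Most of this was Actn3, which was 4.81 ± 0.9502 times Actn2 per kilobase in WT myotubes.

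**Figure D3:**
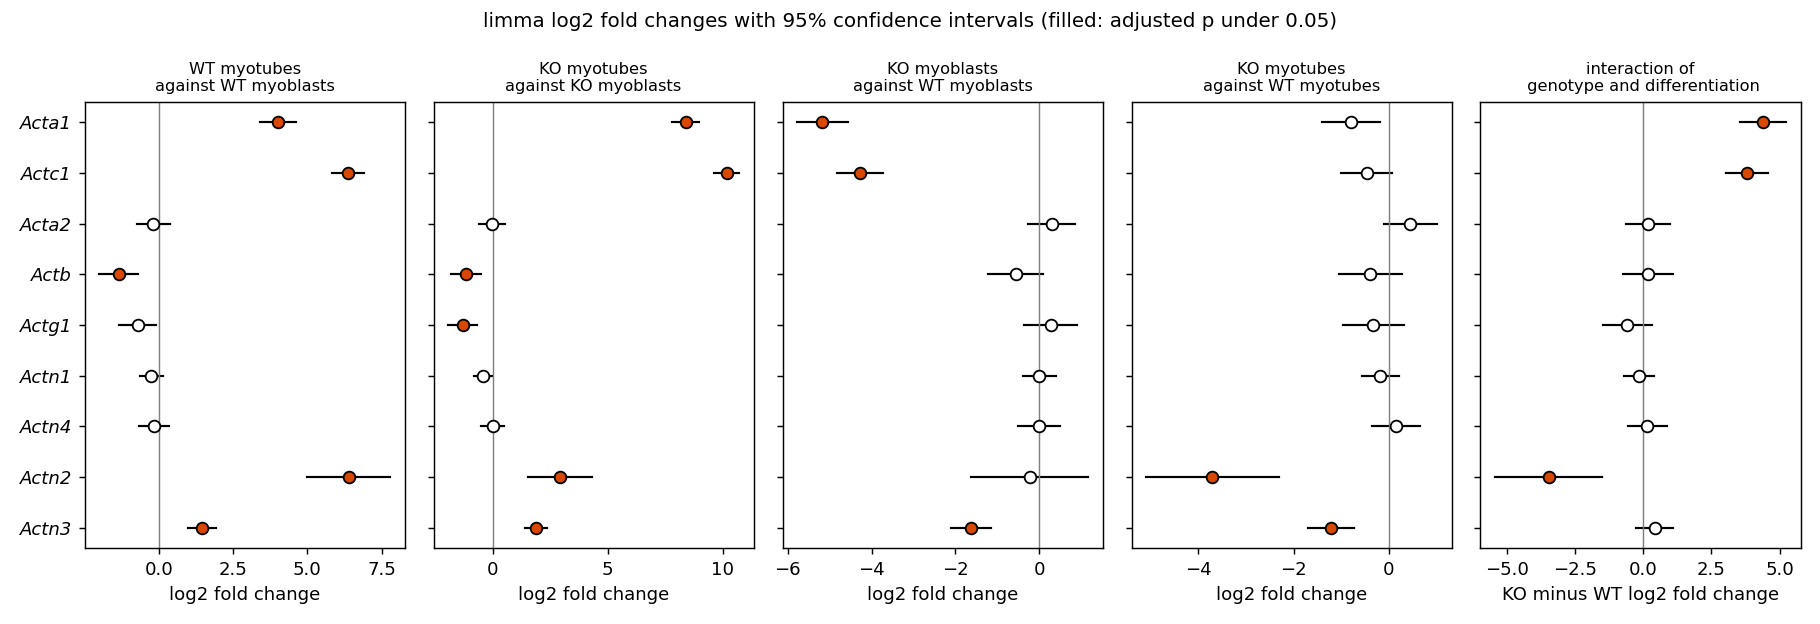
limma log2 fold change of each gene (point) with its 95% confidence interval (bar) in the 4 comparisons, and the difference of the KO and WT changes in the last panel, with an x axis of its own in each panel. Filled points have an adjusted p under 0.05, as for the interaction of Acta1 (4.38), Actc1 (3.81) and Actn2 (-3.47).

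On differentiation in WT, 4 of the 9 genes were called higher (Acta1, Actc1, Actn2 and Actn3), against 13.8% of all genes tested, and 1 lower (Actb), against 9.16%. The samples did not overlap for 6 of 9, against 28.0% of all genes. In KO, 4 were higher, the same genes, against 17.3%, and 2 were lower (Actb and Actg1), against 16.1%, with 4 of 9 not overlapping against 27.4%. In KO against WT myoblasts, 0 were higher (7.26% of all genes) and 3 were lower (Acta1, Actc1 and Actn3, against 8.50%), with 4 of 9 not overlapping against 26.8%. In KO against WT myotubes, 0 were higher (9.74%) and 2 lower (Actn2 and Actn3, against 13.7%), with 3 of 9 not overlapping against 19.4%. Of all calls in WT differentiation 60.1% were higher, and 49.7% after quantile normalization. The comparisons share groups, so their calls are not independent. The median log2 fold change of the 9 was -0.15, 0.00, -0.24 and -0.38 in these 4 comparisons, and that of all genes tested -0.01, -0.02, -0.01 and -0.07.

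The interaction of genotype and differentiation was called for 3 of the 9, against 3.45% of all genes (1.97% more positive and 1.48% more negative in KO). The change was more positive in KO for Acta1, with a log2 difference of 4.38 (standard error 0.41, adjusted p = 4.95e-07), and for Actc1, with 3.81 (standard error 0.37, adjusted p = 7.51e-07, both limma). For both, the difference between genotypes was thus larger in myoblasts than in myotubes. For Actn2 the KO change was less positive, by -3.47 (standard error 0.95, adjusted p = 0.0458, limma). This call was lost with a pseudocount of 0.5, with no filter, with a minimum of 50 and without any 1 of the 12 samples outside the KO myotubes (adjusted p = 0.0523 to 0.113, over 17641 genes with no filter and 7694 with the minimum of 50). The fitted size of the Actn2 interaction depends on the pseudocount, since both myoblast groups were at or under the floor. Between the Actn3 changes of 1.46 and 1.87 no difference was called in this test (0.41, 95% confidence interval -0.26 to 1.08, adjusted p = 0.544).

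The genes with the most similar profile over the 16 samples were, for Acta1, Myl1 (Pearson r = 0.993), Mybph (0.990) and Spsb1 (0.989), and, for Actc1, Myh3 (0.992), Myom2 (0.991) and Myl4 (0.988). Myl1 and Myl4 encode myosin light chains, Myh3 the embryonic myosin heavy chain, and Mybph and Myom2 thick filament proteins. For Actn3 they were Trim54 (0.975), a microtubule-associated ubiquitin ligase of muscle, Apobec2 (0.967) and R3hdml (0.967), and for Actn2 Adprhl1 (0.983), AL589670.4 (0.969) and Fam78a (0.966). Actb was nearest to Eif6 (0.973), Gata3 (0.973) and Myl9 (0.971), Acta2 to Kars (0.924), Map3k4 (0.913) and Commd7 (0.902), and Actg1 to Haus1 (0.969), Gclm (0.936) and Ahcy (0.920). Actn1 and Actn4 had weaker neighbours, with at most 0.797 for Utp14b and 0.853 for Btbd10. These values describe points that fall into 4 groups.

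**Figure D4:**
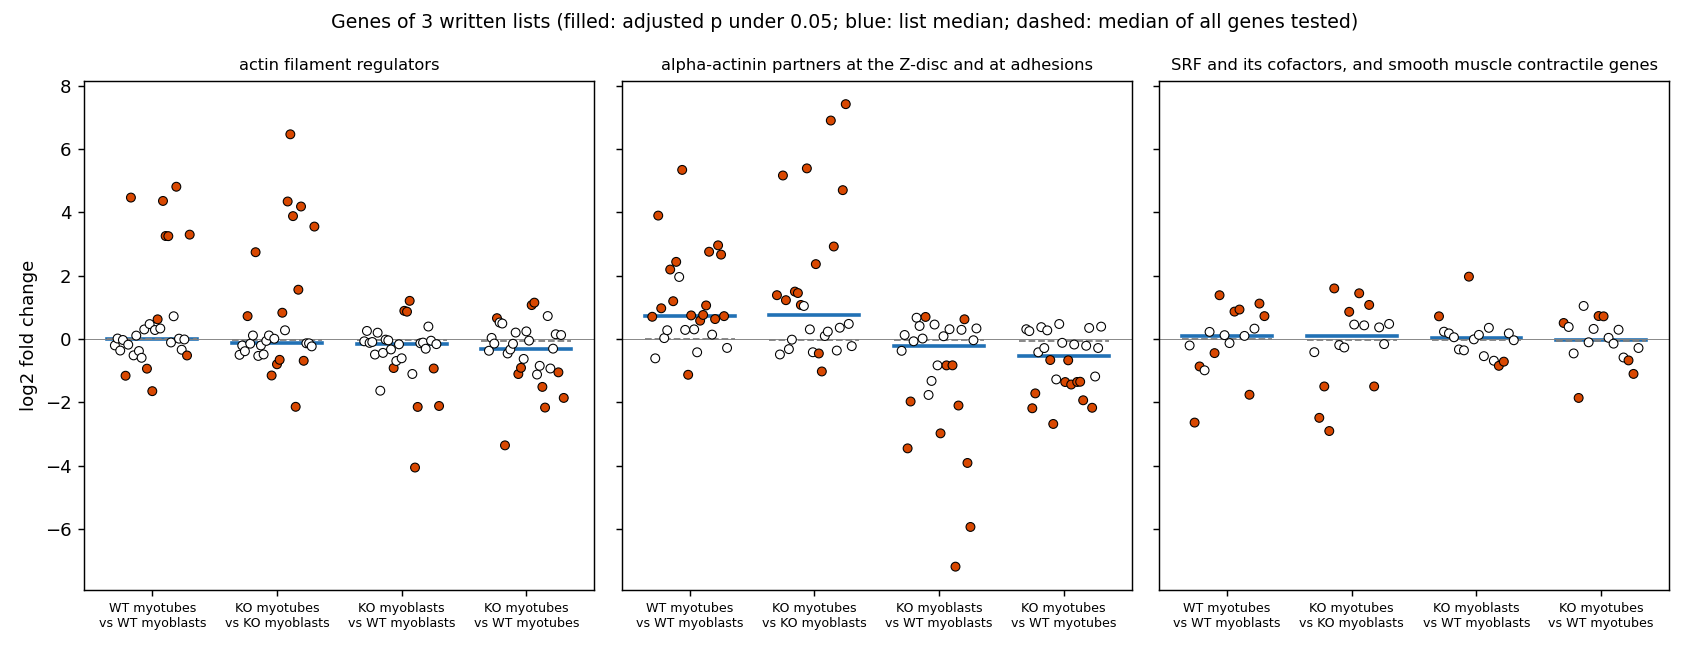
log2 fold change of each tested gene of 3 lists in the 4 comparisons, with filled points at an adjusted p under 0.05, the list median as a blue line and the median of all genes tested as a dashed line. The alpha-actinin partners have a median of 0.74 in WT and 0.76 in KO differentiation, and of -0.54 in KO against WT myotubes.

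Partners of alpha-actinin at the Z-disc and at adhesions were followed as a list of 28 genes, 26 of which were tested. In WT differentiation 16 of 26 (61.5%) rose and 1 (3.85%) fell, against 13.8% and 9.16% of all genes, among them Myoz2, a calcineurin-binding Z-disc protein (log2 fold change 5.34, 121 against 2.75 normalized counts), and Csrp3, the muscle LIM protein (3.90, 165 against 11.3). Pdlim1, a PDZ-LIM protein of stress fibres, fell by 1.13. In KO differentiation 12 (46.2%) rose and 2 (7.69%) fell, against 17.3% and 16.1% of all genes, with titin (Ttn) at 7.42 and Synpo2l at 6.90 (560 against 3.83 normalized counts), and with Pdlim7 at -1.02 and Pdlim5 at -0.45. The medians were 0.74 and 0.76, beside -0.01 and -0.02 over all genes.

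Between genotypes, 9 of the 26 partners (34.6%) were lower and 2 (7.69%) higher in KO myoblasts, against 8.50% and 7.26% of all genes, and 15 were not called, with Synpo2l at -7.18 (3.83 against 673 normalized counts) and Ttn at -5.93 (1.93 against 179), and with Ldb3, which binds alpha-actinin through its PDZ domain, at 0.70 and Tln2 at 0.63. In KO myotubes 11 (42.3%) were lower and 0 higher, against 13.7% and 9.74% of all genes, and 15 were not called, with Myoz1 at -2.68 (2.45 against 15.7) and Csrp3 at -2.18 (37.1 against 165). The medians were -0.22 and -0.54, beside -0.01 and -0.07. In the interaction 3 of 26 were more positive in KO and 1 more negative, against 1.97% and 1.48% of all genes. With sample weights 18 partners in place of 11 were called between the myoblast groups, where the calls over all genes went from 15.8% to 35.0% of those tested.

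Of 33 regulators of actin filaments, 29 were tested. In WT differentiation 7 (24.1%) rose and 4 (13.8%) fell, against 13.8% and 9.16% of all genes. Tmod1, which caps the pointed ends of thin filaments, rose by 4.81 on the log2 scale (88.7 against 2.61 normalized counts) and Cap2, a cyclase-associated protein, by 4.47 (69.6 against 2.33). Dstn, an actin-depolymerizing factor, fell by 1.64, and Arpc5, a subunit of the Arp2/3 complex, fell by 1.16. In KO differentiation 9 of 29 rose and 5 (17.2%) fell, against 17.3% and 16.1%. The leiomodins Lmod3 and Lmod2, which nucleate thin filaments, were at 6.47 and 4.35 (105 against 0.219 and 23.7 against 0 normalized counts), Pfn1, a profilin that loads actin with ATP, fell by 2.14 and Cotl1 fell by 1.15. The medians were 0.01 and -0.13, beside -0.01 and -0.02 over all genes.

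Between genotypes, 3 of 29 regulators (10.3%) were higher and 5 (17.2%) lower in KO myoblasts, against 7.26% and 8.50% of all genes. In KO myotubes 3 (10.3%) were higher and 7 (24.1%) lower, against 9.74% and 13.7%. The medians were -0.16 and -0.30, beside -0.01 and -0.07 over all genes. Gsn, the filament-severing gelsolin, was higher in KO at both stages (log2 fold change 1.21 and 1.15). The formins Fhod1 (0.89 in myoblasts) and Fhod3 (1.07 in myotubes) were higher too. Lmod3 (-4.06) and Nrap (-2.14) were lower in KO myoblasts, and Cap2 (-3.35) and Pfn1 (-2.16) in KO myotubes. Lmod3 was the 1 regulator called in the interaction (3.21, adjusted p = 3.36e-04, limma), against 3.45% of all genes. With sample weights 14 regulators in place of 8 were called between the myoblast groups and 6 in the interaction, where calls over all genes rose to 35.0% and 11.3%.

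SRF, its cofactors and smooth muscle contractile genes formed a list of 22 names, 16 of which were tested. In WT differentiation 5 (31.2%) rose and 4 (25.0%) fell, against 13.8% and 9.16% of all genes, with Lmod1 at 1.39 and Tpm2 at 1.12, and with calponin (Cnn1) at -2.64 and transgelin (Tagln) at -1.76. In KO differentiation 4 (25.0%) rose and 4 fell, against 17.3% and 16.1%, with Cyr61 at 1.60, the myosin light chain kinase Mylk at 1.45, Ctgf at -2.90 and Cnn1 at -2.49. The list medians were 0.11 in both genotypes, beside -0.01 and -0.02 over all genes. Calponin and transgelin bind actin filaments in smooth muscle. Tagln was also lower in KO myotubes than in KO myoblasts, at -1.49 (187 against 504 normalized counts).

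Between genotypes 2 of these 16 genes (12.5%) were higher (Lmod1 at 1.97 and caldesmon, Cald1, at 0.72) and 2 lower (Tagln at -0.84 and Tpm1 at -0.71) in KO myoblasts, against 7.26% and 8.50% of all genes. In KO myotubes 3 (18.8%) were higher and 3 lower, against 9.74% and 13.7%, with the SRF cofactors Mkl1 at 0.73 and Mkl2 at 0.72, and with Ctgf at -1.86 and Tpm2 at -1.10. Srf itself was called in KO differentiation, at 1.08 (standard error 0.32, adjusted p = 0.0125, limma), and in none of the other comparisons. The medians were 0.03 between myoblasts and -0.03 between myotubes, beside -0.01 and -0.07. With sample weights 7 genes of this list in place of 4 were called between the myoblast groups, beside the same rise over all genes to 35.0%.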

How the data were processed

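Groups and replicate numbers came from the sample titles. The authors trimmed the reads, aligned them to mm10 with STAR 2.6.0a and counted them per gene with HTSeq, as the labels and the study's methods state; the normalization tool, the library's strand and the handling of multiply mapped reads are not given in the sources used here. The deposited values are log2 of the normalized count plus 1. Each normalized count is a whole multiple of 1 step per sample (100% of values, within 0.01 reads), so reads were recovered for depth, floors (3 reads, a normalized count of 2.49 to 5.99) and counting intervals. Floors and intervals cover counting error only.

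The log2 values of 10767 genes were compared with limma 3.58.1 in R 4.3.3 (lmFit, contrasts.fit and eBayes with trend, 4 group means, two-sided) and adjusted by Benjamini-Hochberg, with calls at under 0.05. Fold changes are on the log2(normalized count + 1) scale, as differences of means of log2 values. The pseudocount tends to understate changes of low genes, but a single 0 in a group can enlarge one, as for Actn2 in KO myotubes. Labels call the samples biological replicates. The procedure was tested on simulated data. Alternatives were pseudocounts of 0.5 and 5, no filter, a minimum of 50, total scaling, quantile normalization, a replicate block, the samples compared, sample weights and each sample left out. Leaving out both shallow KO myotube libraries was added after seeing the data. Transcript lengths, overlaps and shared 31-base stretches came from GENCODE M21 (GRCm38, the build of mm10), promoters from RefSeq (GRCm38.p6).

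The genes named are the 9 members, the 3 genes nearest to each by Pearson correlation, the targeted gene, markers, and for each list and comparison up to 2 called genes with the most positive and 2 with the most negative change. Srf, the Tagln value in KO, Lmod3 in the interaction and genes of shared or overlapping sequence were added after their values were seen. The members and lists were chosen with earlier results of these data known.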

Additional observations from a re-analysis of the deposited data

Results flagged for a closer look

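Among 35 sets of 4 samples with any spread (1 gene in 1 group), 4 held a sample set apart from the other 3 by more than Dixon's 95% critical value for the gap over the range, computed on log2 values. For normally spread values, chance alone sets about 1 in 20 groups apart in this way. That rate does not hold where several samples share a count of 0. In KO myoblasts, Actn4 was lowest in replicate 4 (779 normalized counts, gap over range 0.930). In WT myoblasts, Actn3 was lowest in replicate 4 (119 normalized counts, 0.974) and Actn2 was highest in replicate 1, with the 1 read of its group (0.923 normalized counts, gap over range 1). The other WT myoblast samples held 0 Actn2 reads, so this gap over range would be 1 for any number of reads. In KO myotubes, Actn2 was lowest in replicate 2 (0 normalized counts, 0.838), a library of 1790524 reads.

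The change on differentiation differed between KO and WT by a test of the interaction in limma for 3 genes. The log2 difference was 4.38 for Acta1 (adjusted p = 4.95e-07), 3.81 for Actc1 (adjusted p = 7.51e-07) and -3.47 for Actn2 (adjusted p = 0.0458). For Acta1 and Actc1 the KO change was higher with each single sample left out. The Actn2 call was lost under 3 of the other settings and without any 1 of 12 samples, and was kept without both shallow KO myotube libraries (-2.68, adjusted p = 0.0128).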

How the results depend on the processing

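Values of lowly expressed genes are limited by depth: 3 reads equal 2.49 to 5.99 normalized counts, and Actn2 and Actc1 in myoblasts rest on few reads. Replicate numbers did not clearly pair the samples. The mean correlation of deviations was 0.0330 for the same number and -0.0108 for other numbers. Of 24 pairs with the same number, 10 were over 0.1, and 7 of 16 samples were closest to their own number. A weak pairing was not tested for. With the replicate block the genes called in WT differentiation were 2495 against 2474, and the block changed no call of the 9 genes. The cause of the changes below was not tested.

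With sample weights the called genes between the myoblast groups were 14 regulators, 18 partners and 7 of the SRF list, and in the interaction 6 regulators, 9 partners and 3 of the SRF list, against 8, 11, 4, 1, 4 and 1. Over all genes, sample weights raised the calls from 1697 to 3773 between the myoblast groups and from 371 to 1221 in the interaction. In the interaction, 2 regulators were called with a pseudocount of 5, with quantile normalization or without both shallow libraries, 1 to 3 with each sample left out (3 without replicate 2 of WT myotubes or of KO myoblasts, 2 without replicate 2 or 3 of KO myotubes), and 1 to 2 of the SRF list (2 without replicate 2 of WT myoblasts). Per kilobase, the share of Acta1 and Actc1 was 0.898% in WT myoblasts and 22.5% in KO myotubes.

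Signs turned for uncalled differences near 0. Acta2 in KO differentiation was 0.22 with sample weights, 0.090 without both shallow libraries and -0.20 to 0.25 with each sample left out, and its interaction -0.076 after quantile normalization and -0.019 to 0.43. The Actb interaction was -0.47, -0.12 and -0.21 under quantile normalization, sample weights and without both shallow libraries, and -0.079 to 0.40 with each sample left out. Between myoblasts, Actn1 was 0.052 with total scaling, 0.039 after quantile normalization and -0.16 to 0.15 with each left out, Actn4 0.053, 0.022 and -0.13 to 0.21, and the fitted value of Actn2, no measure of fold with 1 read in WT and 0 in KO, was 0.58 after quantile normalization. Actn4 in KO differentiation was -0.052 with total scaling and -0.19 to 0.22, and with each sample left out its WT differentiation was -0.28 to 0.063, its difference between myotubes -0.0069 to 0.37 and its interaction -0.060 to 0.37.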
